A study of Salvia dorisiana with 6 samples.

Results

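The study deposited levels of 85 transcripts that it had selected as highly expressed in the trichomes of *Salvia dorisiana*. Of these, 6 were grouped here for their annotation with fatty acid metabolism, lipid hydrolysis or acyl transfer. They were chosen by cluster name. clust2942 had a fatty acyl-CoA reductase as its BLAST hit, clust1812 a ketoacyl-ACP synthase and clust2690 the GDSL esterase/lipase APG. clust1946, clust1854 and clust5317 were the only 3 listed transcripts with the PFAM domain Transferase. clust2690 was included as a transcript of lipids and the cuticle, but its annotation names a lipase and no cuticle component.

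RNA was sequenced from 6 parts of greenhouse plants that had been propagated by cutting, and no treatment is described. There was 1 library each of trichomes, stem, roots and leaves in 3 sizes. Leaves <3 cm are called small leaves here, those of 3–10 cm medium leaves and those >10 cm large leaves. The trichomes had been abraded from apical buds and young leaves and were a total fraction of several trichome types. Whole leaves carry trichomes too, and whether stem does is not described in the paper. In bulk tissue such as whole leaves, stem and roots, fewer cells of a type and less RNA per cell cannot be told apart. Because no tissue had a second library, differences between tissues have no replicate check, no SD is given and no test was made. The intervals in the text are at 95% and cover counting error only.

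Levels are given as RPKM, read pairs scaled to the length of the transcript and to the mapped pairs of the library, so that levels can also be compared between genes. The reference held trichome transcripts only, so the mapped pairs of leaves, stem and roots leave out RNA that it lacks. Levels in different tissues are therefore shares of that mapped part. The list had been selected on these same libraries by RPKM above 1000 in trichomes and by correlations above 0.6 with *SdLS*, the limonene synthase of the plant, and with the pathway metabolites. A level that is highest in trichomes is therefore fixed by the selection, and 85 of 85 listed transcripts were highest there. Among leaf sizes, stem and roots, the paper found the metabolites most concentrated in small leaves. Lower levels in larger leaves, stem and roots than in small leaves are therefore favoured by the selection too, though not fixed. In these libraries the trichome markers *SdLS* and *SdL7H*, the limonene hydroxylase, were at 22369 and 9290 RPKM in trichomes. In large leaves they were at 323 and 213 RPKM, and in roots *SdLS* was at 455 RPKM while *SdL7H* was at 13.1 RPKM.

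In plants, fatty acids are built in plastids with ketoacyl-ACP synthases, which lengthen a growing acyl chain. Fatty acyl reductases turn the finished chains into fatty alcohols of waxes and pollen walls. GDSL esterases/lipases form a large family of hydrolases, some of which in tomato polymerise the cutin of the cuticle. Acyltransferases with the Transferase domain, known as the BAHD family, move an acyl group from coenzyme A to an alcohol, a sugar or an amine, and make esters such as those in the scent of lavender. Names given to the transcripts are matches in other species, and no enzyme activity of these 6 was analysed here.

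The median level of the 6 transcripts was 1604 RPKM in trichomes, 127 RPKM in small leaves, 83.9 RPKM in medium leaves, 70.3 RPKM in large leaves, 20.4 RPKM in stem and 1.64 RPKM in roots. For all 85 the medians in the same order were 1832, 196, 153, 94.2, 49.2 and 6.86 RPKM, so that the median of the 6 was the lower in each library. The depth behind a value went from 2885 to 14418 fragments per transcript in trichomes but only from 6 to 34 fragments in roots, as recovered from the RPKM at the shortest lengths that gave whole fragments. In roots even the interval of clust1946, the member with the most fragments there, ran from 3.36 to 6.79 RPKM.

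**Figure D1:**
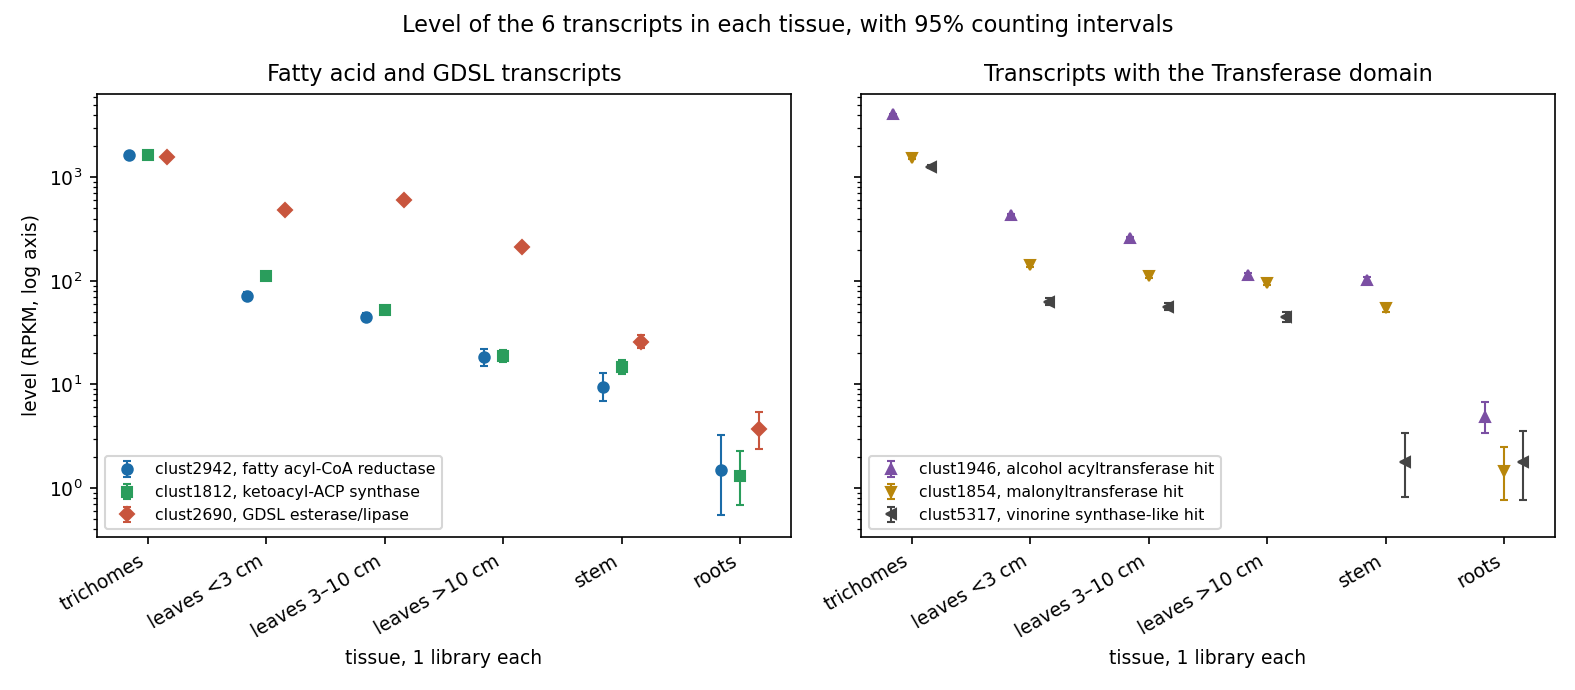
Level of the 6 transcripts in RPKM on a log axis, by tissue, with 1 library each and bars for the 95% counting interval, where the left panel holds clust2942, clust1812 and clust2690 and the right panel the 3 transcripts with the Transferase domain. clust2690 stands above the others in small leaves, medium leaves and large leaves, at 210 to 604 RPKM, and clust5317 drops to 1.79 RPKM in stem.

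Of the fatty acid transcripts, clust1812 matched a ketoacyl-ACP synthase, which lengthens the acyl chain during fatty acid synthesis, and carried the ketoacyl-synt, Ketoacyl-synt_C and Thiolase_N domains. Its level was 1655 RPKM in trichomes, 111 RPKM in small leaves, 52.3 RPKM in medium leaves, 18.9 RPKM in large leaves, 14.8 RPKM in stem and 1.31 RPKM in roots. The tissues were thus ordered with trichomes first, the leaves from small to large next, and stem and roots last. Trichomes were 14.9-fold above small leaves (14.2 to 15.6). Large leaves were at 17.0% of the level of small leaves (14.9 to 19.4), the lowest such share of the 6 transcripts. The step from large leaves to stem was small, with stem at 78.5% (63.7 to 96.4) of the leaf level.

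clust2942 matched a fatty acyl-CoA reductase, an enzyme that makes primary fatty alcohols, and carried the Sterile domain, named after a male sterility protein of *Arabidopsis* that acts in the pollen wall. It was at 1635 RPKM in trichomes, 71.7 RPKM in small leaves, 44.6 RPKM in medium leaves, 18.3 RPKM in large leaves, 9.50 RPKM in stem and 1.49 RPKM in roots. The order of tissues was that of clust1812. The difference between trichomes and small leaves, 22.8-fold (21.0 to 24.8), was the largest of the 6. On the log2 scale of RPKM + 1 it was the 8th largest of the 85. Of its RPKM summed over the 6 tissues, 91.8% was in trichomes, also the highest share of the 6 transcripts. In roots it rested on 6 fragments, which give an interval of 0.547 to 3.24 RPKM.

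The levels of these fatty acid transcripts lay close to each other. The ratio of clust1812 to clust2942 was 1.01 (0.972 to 1.05) in trichomes and 1.03 (0.819 to 1.30) in large leaves, and in both libraries the interval includes 1. In small leaves the synthase was the higher, by 1.55 times (1.42 to 1.69), in medium leaves by 1.17 times (1.06 to 1.30) and in stem by 1.56 times (1.10 to 2.24). In roots the ratio, 0.882 (0.306 to 2.86), could not be told from 1 at this depth.

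The GDSL transcript clust2690 had another pattern over the leaves. It was at 1572 RPKM in trichomes, 480 RPKM in small leaves, 604 RPKM in medium leaves, 210 RPKM in large leaves, 25.9 RPKM in stem and 3.67 RPKM in roots. Its trichome level was close to those of the fatty acid transcripts, while its leaf levels were several-fold above theirs. GDSL enzymes cleave ester bonds of lipids and related compounds, similar members of such a family could share reads in the mapping, and the APG name of the hit comes from a protein of anthers. Only 54.3% of its summed RPKM was in trichomes, against 79.3% to 91.8% for the other members. Trichomes were 3.27-fold (3.16 to 3.39) above small leaves, a ratio that turned to a log2 value of -1.35 once each library was scaled to the summed RPKM of the list.

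Medium leaves held 1.26-fold (1.22 to 1.29) more clust2690 than small leaves, a step whose direction was the same with that scaling. It was the 2nd highest ratio of the 85 on the log2 scale of RPKM + 1. clust2690 was also among 5 of 85 transcripts in which medium leaves came first, small leaves next and large leaves last. From medium leaves to large leaves its level was lower by 1.52 on the log2 scale of RPKM + 1, against a list median of -0.98. In stem it was at 12.3% (10.6 to 14.2) of large leaves, and only 2 of the 85 transcripts had a lower ratio on that log2 scale.

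Among the 3 transcripts with the Transferase domain, clust1946 was the most abundant. Its hit was an alcohol acyltransferase of lavender, a kind of enzyme that makes volatile esters from alcohols and acyl-CoA. It was at 4050 RPKM in trichomes, 432 RPKM in small leaves, 260 RPKM in medium leaves, 113 RPKM in large leaves, 102 RPKM in stem and 4.86 RPKM in roots. It ranked 17th of the 85 in trichomes and above the other 5 members there, which ranked from 48th to 65th. The ratio of trichomes over small leaves was 9.37 (9.11 to 9.65), and large leaves were at 26.1% (24.5 to 27.8) of small leaves. Stem, at 90.5% (82.5 to 99.1) of large leaves, was barely below those leaves, and with scaling to the summed list the difference turned to a log2 value of 0.13. Between stem and roots there was a step of 21.0-fold (14.9 to 30.6).

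clust1854 had as its hit a malonyltransferase of *Perilla frutescens* that attaches a malonyl group to a sugar of anthocyanin pigments, and carried a PKI domain beside Transferase. It was at 1552 RPKM in trichomes, 142 RPKM in small leaves, 111 RPKM in medium leaves, 95.7 RPKM in large leaves, 54.1 RPKM in stem and 1.45 RPKM in roots. Its leaf series was thus much flatter than that of clust1946. Large leaves kept 67.3% (63.0 to 72.0) of the level of small leaves, a decrease that turned to an increase of 0.54 on the log2 scale when the libraries were scaled to the summed list. In stem it was at 56.6% (51.1 to 62.6) of large leaves. The step from stem to roots was its steepest, 37.4-fold (21.7 to 70.8). On the log2 scale of RPKM + 1, only 3 of the 85 transcripts had a lower ratio of roots over stem.

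clust5317 matched vinorine synthase, which acetylates an alkaloid precursor in *Rauvolfia*, and an anthranilate N-benzoyltransferase, and carried the Condensation, Transferase and WES_acyltransf domains. It was at 1267 RPKM in trichomes, 63.1 RPKM in small leaves, 56.5 RPKM in medium leaves, 45.0 RPKM in large leaves, 1.79 RPKM in stem and 1.79 RPKM in roots. All 3 leaf libraries lay near to each other, whereas stem was as low as roots. Trichomes were 20.1-fold (18.4 to 21.9) above small leaves, the 11th largest ratio of the 85 on the log2 scale of RPKM + 1. Large leaves were at 71.2% (61.8 to 81.9) of small leaves, and here too scaling to the summed list gave an increase, by 0.62 on the log2 scale.

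In stem clust5317 had the lowest level of the 6 members. Large leaves exceeded stem 25.1-fold (13.1 to 55.5) and trichomes exceeded stem 708-fold (373 to 1551). On the log2 scale of RPKM + 1, its ratio of trichomes over stem was the 4th largest of the 85. For stem over large leaves on that scale, only 1 of the 85, clust2305, was lower, at -4.19 against -4.04. As a plain ratio of RPKM clust5317 was the lower, since clust2305 was at 98.7 RPKM in large leaves and 4.47 RPKM in stem. The stem level rested on 9 fragments and the root level on 8. The interval of their ratio, stem over roots, was 0.343 to 2.98, and this was the only pair of neighbouring tissues in the order of any member whose interval included 1.

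Set beside each other in the same library, the acyltransferase transcripts kept no fixed proportion. clust1946 exceeded clust1854 by 2.61 times (2.54 to 2.68) in trichomes, 3.04 times (2.91 to 3.18) in small leaves, 2.33 times (2.23 to 2.44) in medium leaves, 1.18 times (1.09 to 1.28) in large leaves, 1.89 times (1.69 to 2.11) in stem and 3.36 times (1.73 to 6.94) in roots. These transcripts were thus nearest to each other in the largest leaves. clust1854 exceeded clust5317 by 1.23 times (1.17 to 1.28) in trichomes, 2.25 times (2.07 to 2.46) in small leaves, 1.97 times (1.82 to 2.14) in medium leaves and 2.13 times (1.87 to 2.43) in large leaves. In stem the same ratio was 30.3 (15.8 to 66.5), and in roots it was 0.809 (0.311 to 2.25), which cannot be told from 1. The summed level of the 3 was 6870 RPKM in trichomes and 8.09 RPKM in roots, and clust1946 made up most of it in trichomes.

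**Figure D2:**
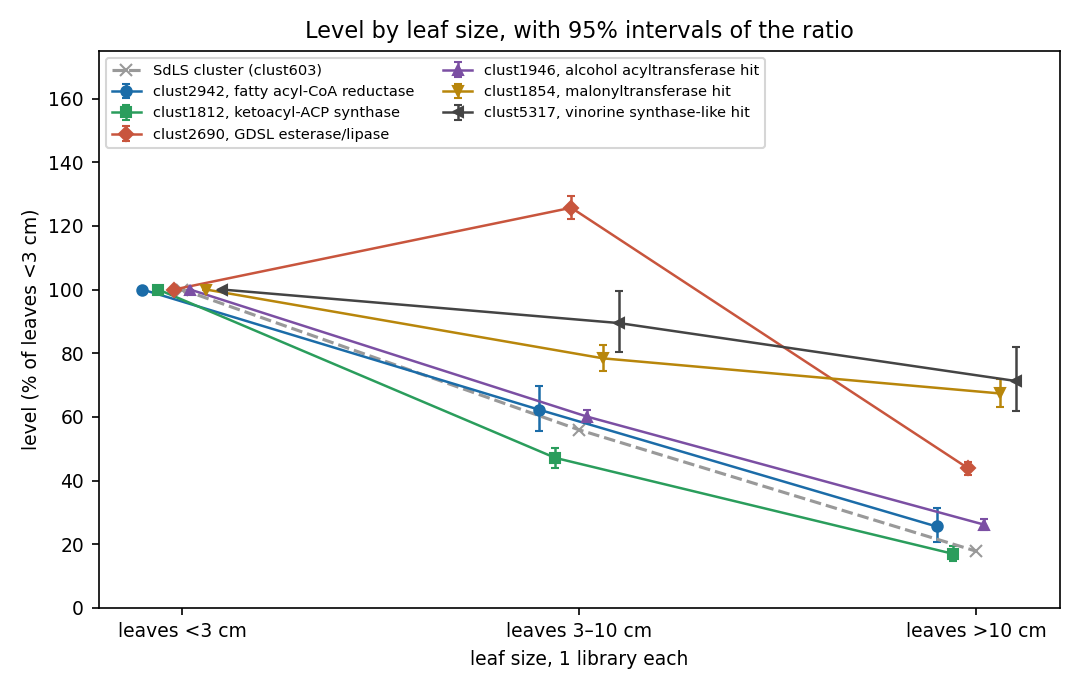
Level of each of the 6 transcripts, and of the *SdLS* cluster as a dashed line, as a percentage of its level in small leaves, by leaf size, with bars for the 95% interval of the ratio and 1 library per size. clust2690 is above 100% in medium leaves, at 126%, and clust1854 and clust5317 keep 67.3% and 71.2% in large leaves, values that turn to increases once the libraries are scaled to the summed list.

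Over leaf size, 5 of the 6 transcripts were lower with every step up in leaf size, the exception being clust2690, beside 76.5% of all 85 transcripts, and clust1854 and clust5317 were so only before scaling to the summed list. All 6 were lower in large leaves than in small leaves, although clust1854 and clust5317 only before that scaling, as were 89.4% of the 85. The selection on metabolites favours this direction. The median ratio of large leaves over small leaves was -1.55 for the 6 and -1.34 for the 85 on the log2 scale, and the summed RPKM of the list moved by -1.11. Relative to that sum, clust1812 was lower by 1.39, clust1946 by 0.82 and clust2942 by 0.80. By the same measure clust2690 was at -0.08, clust1854 at 0.54 and clust5317 at 0.63. The members thus lay on both sides of the change of the list.

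Between trichomes and small leaves, 5 of the 6 transcripts differed at least 8-fold, again all but clust2690, beside 72.9% of the 85. Their median log2 ratio was 3.66, with a range of 1.71 to 4.49, against a median of 3.35 for the 85, while the summed list moved by 3.07. Relative to the sum, clust2942 was higher by 1.43, clust5317 by 1.24, clust1812 by 0.82, clust1854 by 0.38 and clust1946 by 0.16. clust2690 was at -1.36 relative to it. The ratio of the GDSL transcript was thus the only one of the 6 below that of the summed list.

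All 6 transcripts were lower in stem than in large leaves, although clust1946 only before scaling to the summed list, beside 74.1% of the 85. Relative to the summed list, which moved by -0.28, the ratio of stem over large leaves was -3.76 for clust5317, -2.70 for clust2690, -0.60 for clust2942, -0.53 for clust1854, -0.05 for clust1812 and 0.13 for clust1946. Roots were the lowest tissue for all 6, as for 72.9% of the 85, with clust5317 all but level between roots and stem and higher in roots by 0.24 relative to the summed list. All 6 were also under 1% of their trichome level in roots, as were 62.4% of the 85, with values of 0.0794% for clust1812, 0.0911% for clust2942, 0.0931% for clust1854, 0.120% for clust1946, 0.141% for clust5317 and 0.234% for clust2690. Scaled to the summed list these values were 2.05% to 6.03%, all above 1%. With 6 members, counts such as these set nothing apart as particular to them.

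**Figure D3:**
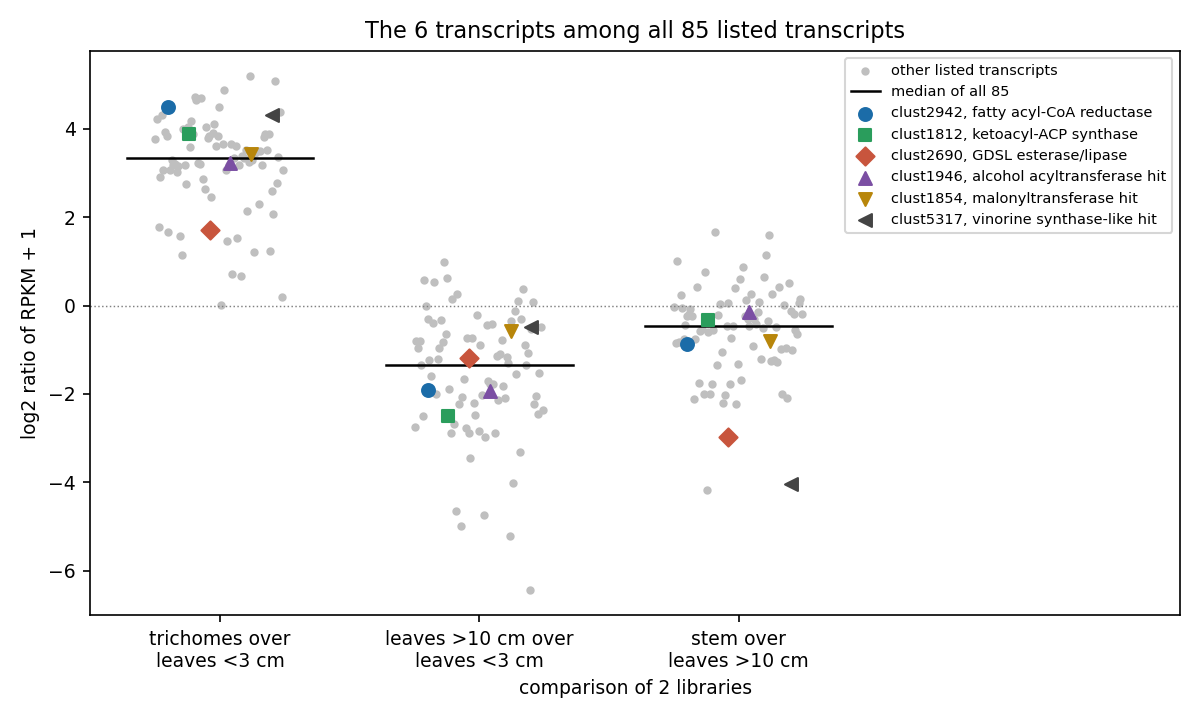
Log2 ratio of RPKM + 1 between pairs of libraries for the 6 transcripts (coloured) among all 85 listed transcripts (grey), with the median of the 85 as a line. clust2690 is near the bottom for trichomes over small leaves, at 1.71, and clust5317 and clust2690 are near the bottom for stem over large leaves, at -4.04 and -2.97, whereas scaling to the summed list turns 4 of the ratios shown, that of clust2690 in trichomes over small leaves, those of clust1854 and clust5317 between leaf sizes and that of clust1946 in stem.

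Because the list was selected by correlation with *SdLS*, the levels were also taken as a percentage of the *SdLS* cluster in the same library. This ratio needs no scaling between libraries, but it depends on the level of *SdLS* in each. The other trichome marker, *SdL7H*, was itself at 41.5% in trichomes, 55.4% in small leaves, 66.0% in large leaves, 43.2% in stem and 2.88% in roots. A higher percentage in large leaves and a low one in roots are thus also seen for that marker. clust2942 was at 7.31% of *SdLS* in trichomes, 3.94% in small leaves, 4.39% in medium leaves and 5.67% in large leaves. clust1812 was at 7.40%, 6.11%, 5.15% and 5.84% in the same tissues. In stem clust2942 was at 2.22% and clust1812 at 3.46% of *SdLS*, below their percentages in trichomes and in each leaf size.

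clust2690 was at 7.03% of *SdLS* in trichomes, 26.4% in small leaves, 59.4% in medium leaves and 65.1% in large leaves, and at 6.05% in stem. clust1854 was at 6.94% in trichomes, 7.82% in small leaves, 11.0% in medium leaves, 29.6% in large leaves and 12.6% in stem. Each of these percentages was thus highest in the largest leaves, where the *SdLS* cluster was at its lowest, 323 RPKM. Both transcripts were themselves lower in large leaves than in medium leaves. clust5317 went from 5.66% in trichomes and 3.47% in small leaves to 13.9% in large leaves, and to 0.418% in stem. clust1946 went from 18.1% in trichomes through 23.8% in small leaves to 34.9% in large leaves and 23.8% in stem. In roots, where the *SdLS* cluster itself was higher than in stem, the 6 were between 0.289% and 1.07% of it.

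**Figure D4:**
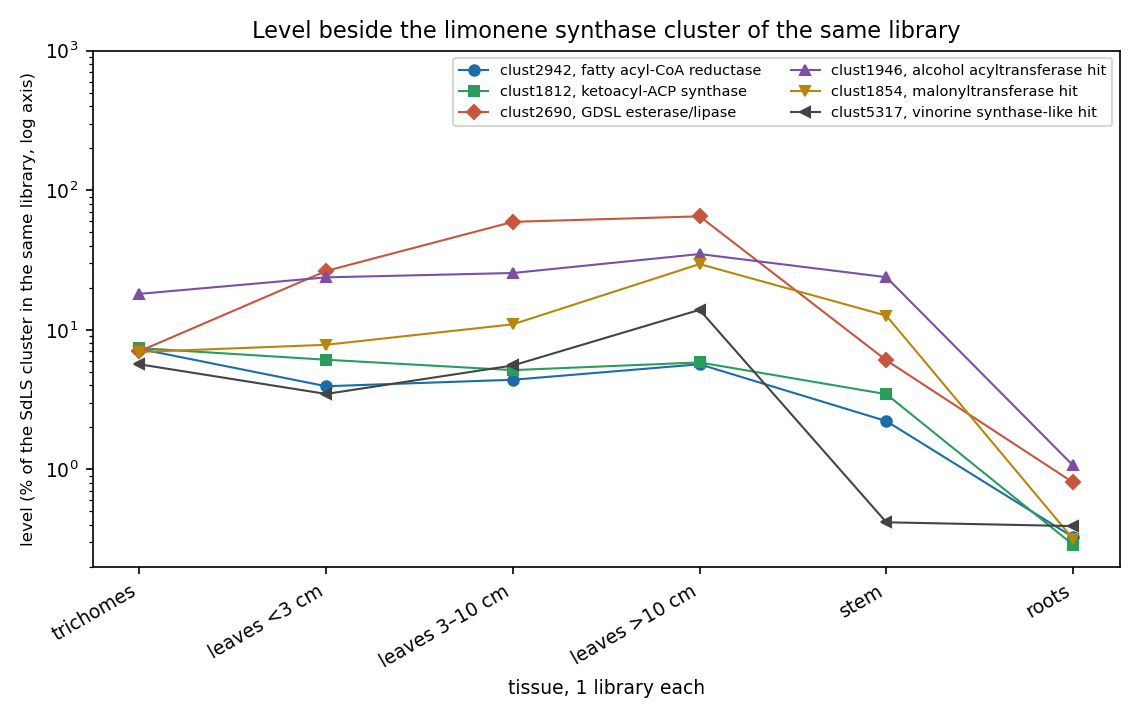
Level of the 6 transcripts as a percentage of the *SdLS* cluster of the same library, on a log axis, by tissue, with 1 library each. clust2942 and clust1812 lie between 3.94% and 7.40% in trichomes and leaves, whereas clust2690 goes from 7.03% in trichomes to 65.1% in large leaves, where *SdLS* is at its lowest.

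Another 4 listed transcripts carried fatty acid, wax or GDSL annotation, and they were set beside the 6. clust2659, a second GDSL esterase/lipase, was at 1377 RPKM in trichomes, 590 RPKM in small leaves, 313 RPKM in medium leaves, 35.3 RPKM in large leaves, 42.3 RPKM in stem and 3.65 RPKM in roots. Trichomes were thus only 2.33-fold (2.25 to 2.41) above small leaves, but unlike clust2690 it was at 5.97% (5.36 to 6.63) of that level in large leaves. The ratio of clust2690 to clust2659 accordingly went from 0.814 (0.790 to 0.839) in small leaves to 5.96 (5.33 to 6.68) in large leaves and was 0.613 (0.513 to 0.731) in stem. The GDSL transcripts were therefore of like level in trichomes, at a ratio of 1.14 (1.10 to 1.19), and far apart in the largest leaves.

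clust458, similar to ECERIFERUM 1, which in *Arabidopsis* takes part in making wax alkanes, was 3.00-fold (2.91 to 3.10) higher in trichomes than in small leaves. clust4242, a peroxisomal trans-2-enoyl-CoA reductase, was 3.19-fold (3.05 to 3.33) higher there and, unlike the 6 members, was at 18.2% (17.0 to 19.5) of its trichome level in roots. clust15, of the cyclopropane-fatty-acyl-phospholipid synthase family, was 14.9-fold (14.3 to 15.5) higher, like clust1812. Of these 4, then, only clust15 differed at least 8-fold between trichomes and small leaves, beside 72.9% of the 85. Lower with every step up in leaf size were 3, beside 76.5%, and lower in large leaves than in small leaves were 4, beside 89.4%. Lower in stem than in large leaves were 2, beside 74.1%, and under 1% of trichomes in roots were 3, beside 62.4%. Relative to the summed list, large leaves over small leaves turned to 0.15 for clust458, 0.22 for clust15 and 0.81 for clust4242. Only clust2659 was then still lower there and at every step, and clust4242 in stem over large leaves turned to 0.04. Scaled alike, 0 differed at least 8-fold and roots were above 1% of trichomes for each.

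Likeness of pattern was measured as the distance between log2 profiles of RPKM + 1 over the 6 libraries, each centred on its mean. The nearest transcript to clust2942 was clust1812, at a distance of 0.69, followed by the diterpene synthase clust927 at 0.79 and the isopentenyl diphosphate isomerase clust3980 at 0.84. For clust1812 the nearest were clust3515, a phenylcoumaran benzylic ether reductase-like protein, at 0.30, the copalyl diphosphate synthase clust70 at 0.51 and clust3980 at 0.60. clust1946 was nearest to clust3466, annotated as a menthofuran synthase, at 0.25, to *SdL7H* at 0.39 and to the flavonoid methyltransferase clust2724 at 0.45. All 85 share the trichome peak by selection. The nearest transcripts of clust1812 and clust1946 were also the nearest by Pearson correlation and without the trichome library. That of clust2942 was not, and became the ABC transporter clust10 by correlation and clust3980 without the trichomes.

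clust1854 was nearest to the carotenoid cleavage dioxygenase clust976 at 0.52, to clust4414, a phenazine biosynthesis-like protein, at 0.57 and to the methyltransferase clust2514 at 0.68, which was the nearest by Pearson correlation. clust2690 and clust5317 had no near neighbour, against a median nearest distance of 0.75 over the 85 and a range of 0.21 to 2.32. For clust2690 the nearest was clust458 at 1.73, before the P450 clust1660 at 1.79 and the chloroplast phosphate translocator clust2305 at 2.22. By Pearson correlation it was instead the triosephosphate isomerase clust2916, and without the trichomes clust1660. For clust5317 it was clust2305 at 1.62, then clust1660 at 1.92 and the P450 clust5902 at 1.98. The acyltransferase transcripts were not each other's nearest, since clust1946 and clust1854 were 1.07 apart, and clust5317 was 3.40 from clust1946 and 3.53 from clust1854.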

How the data were processed

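RNA was measured in 6 libraries, 1 per tissue, grouped by their labels. Libraries were demultiplexed with CASAVA 1.8.1, per the submitters' processing notes. With CLC Genomics Workbench the authors aligned the pairs to open reading frames of PacBio trichome transcripts, merged at a similarity of 0.85, ignored strand in counting and allowed a read up to 10 places, so that close paralogues may share reads. No genome build is given in the sources used here. The authors deposited RPKM for 85 selected transcripts, and 85 of 85 were above 1000 RPKM in trichomes. The paper gives a slightly larger number for its selected set, and all shares and ranks here are over the deposited 85. The deposited table also holds the authors' own correlations with *SdLS* and the metabolites, which were not used, and 0 RPKM columns of other samples.

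Transcripts were taken by cluster name. Fragments were recovered from the RPKM as whole numbers, and 510 of 510 values were whole within 0.001 fragments at the shortest fitting lengths, 609 to 2961 nt in steps of 3. True fragments can be whole multiples, so that intervals may be too wide. The search was tested on simulated data, with 3 tables like the real one in size (85 transcripts, 6 libraries), and it returned 100% of the totals and all fragments of 99.2% of the transcripts. Recovered totals were 3314347 for trichomes, 14854782 for small leaves, 19415968 for medium leaves, 9454204 for large leaves, 7323656 for stem and 6516794 for roots. Intervals of a level are exact Poisson and those of a ratio exact binomial (Clopper-Pearson), at 95%. Log2 ratios used a pseudocount of 1 RPKM, which understates those of low transcripts, and no filter on low values. Fold values are ratios of RPKM without a pseudocount, whereas ranks of ratios among the 85 were taken on the log2 ratios.

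Named genes were the 6 members, 4 others by annotation, the 3 nearest transcripts of each member, and the trichome markers *SdLS* and *SdL7H*. The other pathway genes of that rule, *SdPOHDH* and *SdPAOMT*, were at 1009 and 1557 RPKM in trichomes. The members and lists were chosen with earlier results of these data known. Alternatives were pseudocounts of 0.1 and 10 RPKM, a filter on low leaf values, scaling to the summed list, another measure of likeness and leaving out the trichomes for it. Python 3.11.15, numpy 2.4.6, pandas 2.3.3 and scipy 1.17.1 were used.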

Additional observations from a re-analysis of the deposited data

How the results depend on the processing

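Scaling each library to the summed RPKM of the 85 transcripts moved most values, by its construction, since the sum itself was highest in trichomes. On the log2 scale the median for trichomes over small leaves became 0.61 in place of 3.66, that of large leaves over small leaves -0.45 in place of -1.55, and the median level in roots 2.75% of trichomes in place of 0.107%. The sign turned for clust2690 in trichomes over small leaves, at -1.35, for clust1854 and clust5317 in large leaves over small leaves, at 0.54 and 0.62, and for clust1946 in stem over large leaves, at 0.13. With it, 3 of the 6 were lower with every step up in leaf size, in place of 5, beside 44.7% of the 85 scaled alike. At least 8-fold higher in trichomes than in small leaves were 0, in place of 5, but also 0 of the 85, since the summed list takes 3.07 off each log2 ratio and the highest of them was 5.19.

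By Pearson correlation, 3 of the 6 transcripts kept their nearest transcript, and without the trichomes 4 did. The cause was not tested. A pseudocount of 0.1 RPKM moved 0 of 18 single ratios beyond their counting interval, and one of 10 RPKM moved 8, among them clust5317 in stem over large leaves, to -2.22. Ratios from fragments without a pseudocount, added after seeing the data, moved 0 of 18. Leaving out members under 1 or 10 RPKM in their highest leaf library left out 0. No paired analysis was possible because each tissue has 1 library. Root and stem levels of a few fragments limit any order among low values.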
